A study of Mus musculus with 12 samples.

Results

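Cell cycle and DNA replication genes were followed across 12 liver arrays as a set of 50 genes, of 34741 genes named on the array. The members were taken by gene symbol and split by role: 20 act in the G1 to S transition and in DNA replication (called replication genes here), and 30 act in mitosis or are transcribed for it (mitosis genes). All 50 were found on the array. Dividing cells express these genes in waves. E2F factors switch on the genes for the MCM helicase, nucleotide supply and histone delivery as a cell enters S phase, and MuvB complexes with B-Myb and FOXM1 switch on cyclin B, the mitotic kinases and the spindle proteins towards mitosis. p53 acts against both waves, largely through the CDK inhibitor p21, and most hepatocytes of an adult liver rest outside the cycle.

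The arrays came from livers of male ICR mice, wild type by label, that were 5 weeks old at purchase and were adapted for 1 week. DEN (diethylnitrosamine, a carcinogen that liver enzymes turn into a DNA-alkylating agent) was given in drinking water at 80 mg/L, about 400 µg a day, and ATRA (all-trans-retinoic acid, the ligand of the retinoic acid receptors) at 30 mg/L, about 150 µg a day. The 6 treatments were ATRA+DEN, ATRA, DEN, vehicle, G0s2 siRNA and control siRNA, each at 7 days and at 2 days, with 1 array for each of the 12 groups. Vehicle mice received water, while ATRA was first dissolved in ethanol and dimethyl sulfoxide. The siRNA (1.6 nmol, intravenous, in a lipid carrier) targeted G0s2, an inhibitor of the lipase ATGL. The protocol places its injection on the day before DEN, but the labels of the siRNA arrays do not say whether those mice drank DEN. Nothing states whether an array holds 1 animal or a pool, so the 2 days are the only repeats of a treatment, and the p-values below measure the spread between those arrays, which may be technical.

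Levels are given as log2 of the processed intensity minus the 75th percentile of the array, so that 0 is the 75th percentile and a difference of 1 is a 2-fold difference. The share of probes well above background ran from 41.0% to 50.7% over the arrays, and the number of arrays limits the precision. All 12 hepatocyte marker genes were above background on every array. The vehicle array of day 2 stood apart in one respect: the digestive enzyme genes of the exocrine pancreas lay at 2.49 for Cpa1, 2.01 for Pnlip and 1.51 for Prss2 there, against levels between -5.93 and -3.41 on the other 11 arrays. Pairs with vehicle are given per day, so that the day-7 value stands without that array, and the medians of the fits are also given without it. Cyp26a1, the retinoid-induced enzyme that breaks down ATRA, lay at 4.34 with ATRA+DEN, 7.10 with ATRA, 1.35 with DEN and 2.38 with vehicle at day 7, and at 6.4, 6.63, 1.87 and 0.42 at day 2. At day 7, the treatment characteristic of 3 arrays contradicts the title and the source name: the array titled DEN is called ATRA there, the one titled ATRA+DEN is called DEN, and the one titled ATRA is called ATRA+DEN. The titles were used, and the high Cyp26a1 arrays of day 7 are the 2 with ATRA in the title. Among the day-7 arrays without siRNA, the high Cdkn1a (p21 gene) arrays are the 2 with DEN in the title. Cdkn1a lay at 6.62 with ATRA+DEN and 6.83 with DEN, against 2.84 with ATRA and 1.96 with vehicle. By the characteristic, the array with Cyp26a1 at 1.35 would be an ATRA array and that with Cdkn1a at 2.84 an ATRA+DEN array.

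Detection already separated the 2 roles. Of the 50 members, 27 were above background on all 12 arrays, 17 of the 20 replication genes and 10 of the 30 mitosis genes, and 39 were above background on at least 2 arrays and entered the tests (18 and 21). Another 8, all mitosis genes, were above background on none: the chromosomal passenger kinase Aurkb, the spindle checkpoint kinases Bub1, Bub1b and Ttk, the kinase Melk, the kinesins Kif11 and Kif2c and the condensin subunit Ncapg. Ccne2, the second E-type cyclin, was above background only with DEN at day 7, the origin licensing factor Cdc6 only with DEN at day 2, and the topoisomerase Top2a only with control siRNA at day 2. The number of mitosis genes above background was 21 with ATRA+DEN, 17 with ATRA, 15 with DEN and 17 with vehicle at day 7. At day 2 it was 19 with ATRA+DEN, 19 with ATRA, 12 with DEN and 13 with vehicle, so the DEN array had the fewest on both days. The share of all probes above background was, in the same order, 46.2%, 42.9%, 43.7% and 43.4% at day 7. At day 2 it was 50.7%, 47.6%, 47.2% and 45.9%, so ATRA+DEN also had the highest share over all probes of these arrays. The siRNA arrays had 19 with G0s2 siRNA and 17 with control siRNA at day 7, and 21 and 22 at day 2. Replication genes gave 17 to 19 on every array. In whole liver RNA, fewer cells in the cycle and less RNA per cell cannot be told apart.

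Among the 4 arrays of a day without siRNA, the members split in opposite directions with DEN and with ATRA+DEN. At day 7 DEN and vehicle share a slide, and ATRA+DEN and ATRA share another that was scanned on another day. Slide and ATRA therefore cannot be told apart in the day-7 rankings, and the counts over both days share this limit. At day 2 all 4 arrays share a slide. Of the 27 members above background on all 12 arrays, the DEN array was the lowest of the 4 for 19 at day 7 and for 17 at day 2, where 38.2% and 25.8% of all genes detected on all 12 arrays had their lowest value. It was the highest for 0 members on both days, where 23.9% and 25.4% of all such genes had their highest value. The ATRA+DEN array was the highest for 17 members at day 7 and for 18 at day 2, against 24.5% and 21.4% of all such genes, and the lowest for 0 on both days, against 19.8% and 27.9%. On both days alike, DEN was the lowest for 11 of 27 members, against 9.42% of all such genes: Ccne1, Cdt1, Gmnn, Mcm3, Mcm4, Mcm5, Rrm1, Tk1, Asf1b, Cdc20 and Cdca8. ATRA+DEN was the highest on both days for 11 of 27, against 4.3%: Mcm4, Mcm5, Mcm6, Pcna, Rrm1, Mki67, Mad2l1, Cdc20, Cdca8, Birc5 and Prc1.

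**Figure D1:**
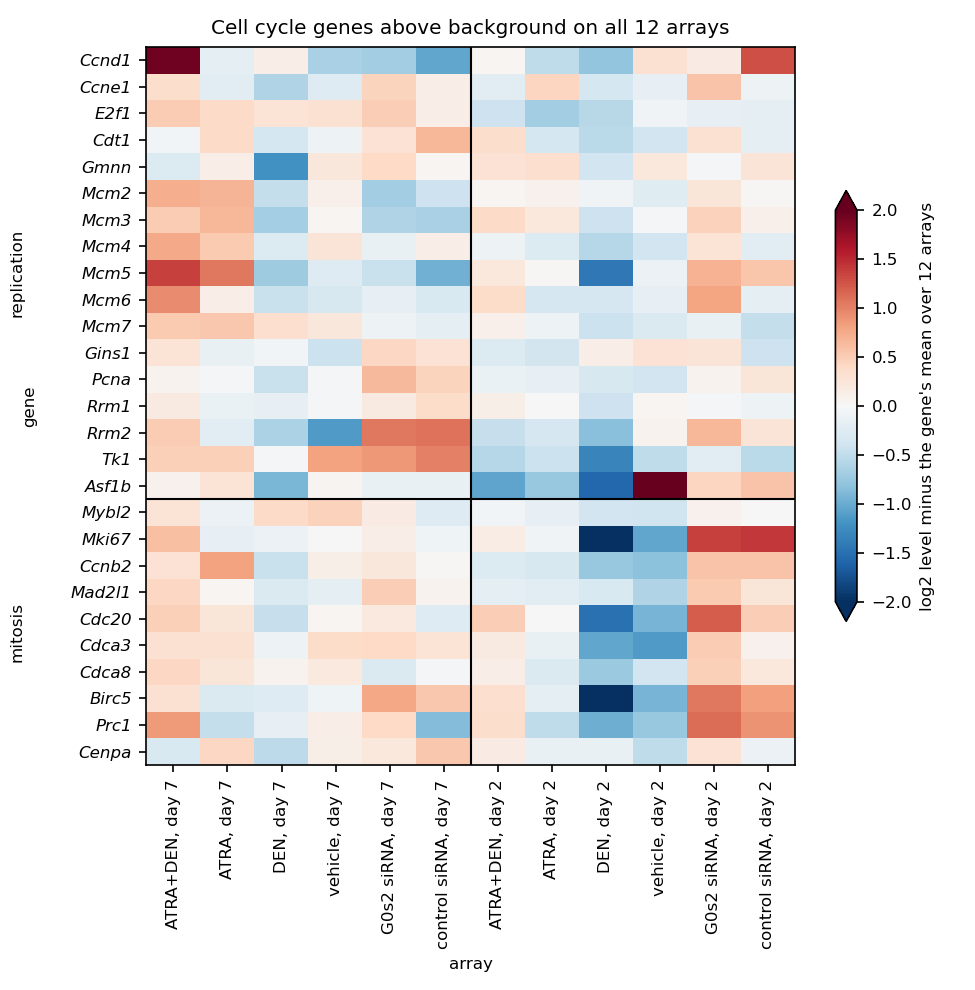
Log2 level of the 27 cell cycle genes above background on all 12 arrays (rows, 17 replication genes over 10 mitosis genes) minus each gene's mean over the 12 arrays (columns, day 7 left and day 2 right); colours stop at 2 on either side of 0. The day-7 ATRA+DEN column is above the gene's mean for 15 of 17 replication and 9 of 10 mitosis genes, the day-2 DEN column for 1 and 0, and Asf1b with vehicle at day 2 is a single high cell 3.18 above its mean.

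Promoters of both roles were searched for their known motifs and are shown for 2 replication and 2 mitosis genes whose levels are described below. Sequences come from the RefSeq promoter table (GRCm38.p6) and give the 250 bases before the gene start, 5′ to 3′ on the gene's strand. Capitals mark an E2F site (TTTCCCGC, TTTCGCGC, TTTGCCGC or TTTGGCGC), a CHR element (TTTGAA, contacted by MuvB) or a CCAAT box (CCAAT, bound by NF-Y), each on either strand. A capital run longer than a single motif holds overlapping E2F sites of opposite strands. Mcm5 lies on the plus strand at chr8:75109259-75109508, Mcm6 on the minus strand at chr1:128359706-128359955, Mki67 on the minus strand at chr7:135716380-135716629 and Cdc20 on the minus strand at chr4:118437344-118437593.
Mcm5: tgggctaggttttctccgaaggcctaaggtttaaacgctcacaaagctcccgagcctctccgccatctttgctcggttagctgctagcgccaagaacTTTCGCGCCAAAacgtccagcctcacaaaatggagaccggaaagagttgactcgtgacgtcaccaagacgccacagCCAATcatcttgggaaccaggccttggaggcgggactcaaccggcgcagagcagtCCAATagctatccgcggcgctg
Mcm6: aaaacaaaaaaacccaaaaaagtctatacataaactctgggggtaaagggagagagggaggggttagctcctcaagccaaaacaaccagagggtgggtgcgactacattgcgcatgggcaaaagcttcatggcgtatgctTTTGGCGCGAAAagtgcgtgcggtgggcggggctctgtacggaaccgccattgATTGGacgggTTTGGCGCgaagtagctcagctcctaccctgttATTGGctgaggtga
Mki67: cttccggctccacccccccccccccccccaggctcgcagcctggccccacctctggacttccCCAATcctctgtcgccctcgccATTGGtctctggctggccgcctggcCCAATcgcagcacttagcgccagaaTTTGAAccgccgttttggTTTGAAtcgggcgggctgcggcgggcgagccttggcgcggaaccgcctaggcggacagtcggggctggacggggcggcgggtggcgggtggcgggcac
Cdc20: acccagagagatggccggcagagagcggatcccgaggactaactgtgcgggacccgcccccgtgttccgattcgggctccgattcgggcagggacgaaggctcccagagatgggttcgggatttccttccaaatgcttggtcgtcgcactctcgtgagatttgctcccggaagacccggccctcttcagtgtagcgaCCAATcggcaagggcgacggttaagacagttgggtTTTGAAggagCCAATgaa
Over the table's full window of 300 bases, 250 before and 50 after the start, 40 of the 50 members had an entry. An E2F site stood in 6 of 15 replication genes (40%) and 2 of 25 mitosis genes (8%), against 2.32% of 27025 promoters. A CHR element stood in 2 of 15 replication genes (13.3%) and 16 of 25 mitosis genes (64%), against 18.1% of all promoters, and 15 of those 16 also held a CCAAT box (60% of the 25, against 7.12% of all promoters holding both). These matches describe the letters only.

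The median of the replication genes was lower with DEN than with vehicle and slightly higher with ATRA+DEN than with ATRA, on both days. Over the 17 detected on all 12 arrays, the median difference of ATRA+DEN from ATRA was 0.12 at day 7 and 0.11 at day 2, and that of DEN from vehicle was -0.33 and -0.38. All genes detected on all 12 arrays had medians between -0.06 and -0.01 in these 4 pairs. The DEN difference with ATRA minus that without it, called the interaction below, had a median of 0.61 at day 7 and 0.57 at day 2 over the 17 genes, against 0.06 and 0.02 over all such genes. It was above 0 on both days for 12 of the 17 and below 0 on both days for 0, where 27.3% and 17.9% of all such genes were.

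The MCM2-7 helicase, which unwinds DNA at the replication fork, varied by subunit. Mcm5 lay at -0.12 with ATRA+DEN, -0.43 with ATRA, -2.21 with DEN, -1.75 with vehicle, -1.94 with G0s2 siRNA and -2.45 with control siRNA at day 7. At day 2 the order of treatments gave -1.27, -1.47, -2.92, -1.61, -0.80 and -0.94. DEN was the lowest of the arrays without siRNA on both days, and both arrays with ATRA were above both without it. Its DEN difference averaged 0.25 with ATRA and -0.88 without it (SE 0.25 each), an interaction of 1.14 (SE 0.35, limma, unadjusted p = 0.0219). Mcm6 had 2.92, 2.11, 1.52, 1.65, 1.81 and 1.66 in the same order at day 7, and 2.34, 1.64, 1.64, 1.81, 2.76 and 1.79 at day 2. Here ATRA+DEN was the highest array without siRNA on both days, and DEN lay close to vehicle. The interaction was 0.90 (SE 0.32, limma, unadjusted p = 0.0363), made of a DEN difference of 0.76 with ATRA and -0.14 without it. For Mcm3 and Mcm4 the interaction was 0.56 (SE 0.26) and 0.57 (SE 0.32), for Mcm2 0.20 (SE 0.34) and for Mcm7 0.11 (SE 0.22), and the last 2 had opposite signs on the 2 days. Over the 12 arrays Mcm7 had a range of 1.01 and Mcm5 of 2.80.

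Licensing and G1 genes were less uniform. Gmnn encodes geminin, which blocks relicensing after replication has begun. It lay at -1.52 with ATRA+DEN, -1.11 with ATRA, -2.45 with DEN, -1.01 with vehicle, -0.85 with G0s2 siRNA and -1.20 with control siRNA at day 7, and at -0.94, -0.90, -1.62, -1.03, -1.27 and -0.98 at day 2. The DEN array was the lowest of all 6 on both days, 1.44 and 0.59 below vehicle, and ATRA+DEN was 0.41 and 0.04 below ATRA. Ccnd1, the D-type cyclin that starts the cycle, had 3.90, 1.77, 2.08, 1.30, 1.25 and 0.91 at day 7, and 1.99, 1.45, 1.17, 2.25, 2.12 and 3.24 at day 2. Its DEN difference without ATRA was 0.78 at day 7 and -1.08 at day 2, so the 2 days disagreed in sign, while that with ATRA was 2.14 and 0.54. Its interaction of 1.49 (SE 0.92) would be -0.65 with the day-7 groups named by the treatment characteristic. The E2F family member E2f1 differed by 0.12 and 0.28 with ATRA and by -0.03 and -0.49 without it, and the licensing factor Cdt1 had an interaction of -0.21 at day 7 and 0.88 at day 2. Cyclin E1 (Ccne1) likewise had 0.90 at day 7 and -0.47 at day 2. Gins1, a subunit of the replicative helicase complex, had 0.04 and 0.25.

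Among genes of nucleotide supply, Tk1 and Rrm1 were the lowest with DEN of the 4 arrays without siRNA on both days. Tk1, the thymidine kinase of the salvage pathway, lay at 4.09 with ATRA+DEN, 4.09 with ATRA, 3.60 with DEN, 4.42 with vehicle, 4.48 with G0s2 siRNA and 4.63 with control siRNA at day 7. At day 2 it had 3.04, 3.19, 2.29, 3.11, 3.40 and 3.07. The DEN array was the lowest of the 6 on each day, 0.82 below vehicle on both, and the interaction was 0.75 (SE 0.24, limma, unadjusted p = 0.026). Tyms, thymidylate synthase, had -2.15, -3.46, -2.51, -2.97, -2.66 and -2.86 at day 7, of which the ATRA and vehicle values were not well above background, and -2.10, -2.59, -2.16, -1.91, -2.10 and -2.31 at day 2. Its ATRA array was the lowest of the 6 on both days, and its interaction of 0.80 (SE 0.39) would be -0.51 with the day-7 groups of the treatment characteristic. The 2 subunits of ribonucleotide reductase had interactions of 0.50 (Rrm1, SE 0.23) and 0.51 (Rrm2, SE 0.56). The replication clamp Pcna, itself a p53 target, had 0.51 at day 7 and -0.03 at day 2. Asf1b, a histone chaperone, had the highest interaction of all members, 2.62 (SE 1.2). It lay at -1.0, -0.82, -2.0, -1.03, -1.23 and -1.23 at day 7 in the order of treatments above, and at -2.14, -1.85, -2.65, 2.09, -0.65 and -0.51 at day 2. The value of 2.09 belongs to the vehicle array with pancreas transcripts. Without that array the interaction was 0.73, with the DEN difference without ATRA then from day 7 alone.

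Mitosis genes had the same pair pattern. Over the 10 detected on all 12 arrays, the median difference of ATRA+DEN from ATRA was 0.31 at day 7 and 0.32 at day 2, and that of DEN from vehicle was -0.23 and -0.10. All 10 were lower with DEN than with vehicle at day 7 and 5 of 10 at day 2, and all 10 were higher with ATRA+DEN than with ATRA at day 2 and 7 of 10 at day 7. The median interaction was 0.48 at day 7 and 0.51 at day 2 (0.06 and 0.02 over all such genes), above 0 on both days for 7 of 10 and below 0 on both days for 1, Cenpa, the centromeric histone H3 variant, at -0.08 and -0.05.

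Mki67, the gene of the proliferation antigen Ki-67 that coats mitotic chromosomes, lay at -0.20 with ATRA+DEN, -0.97 with ATRA, -0.92 with DEN, -0.80 with vehicle, -0.67 with G0s2 siRNA and -0.88 with control siRNA at day 7. At day 2 the same order gave -0.66, -0.88, -2.99, -1.84, 0.57 and 0.61. At day 7 ATRA+DEN stood above the other arrays, which lay close together, whereas at day 2 the arrays spread widely, with DEN at the bottom and the siRNA arrays at the top. Birc5, the survivin subunit of the chromosomal passenger complex, had 0.56, -0.04, -0.01, 0.17, 1.03 and 0.79 at day 7, and 0.58, 0.06, -1.88, -0.68, 1.31 and 1.07 at day 2. Prc1, which bundles the microtubules of the central spindle, had -1.13, -2.46, -2.14, -1.84, -1.58 and -2.85 at day 7, and -1.63, -2.49, -2.95, -2.73, -0.86 and -1.07 at day 2. In both genes ATRA+DEN was the highest array without siRNA on both days. The interaction was 1.13 (SE 0.42) for Mki67, 1.25 (SE 0.37) for Birc5 and 1.35 (SE 0.41) for Prc1, and the DEN difference of Prc1 was 1.33 at day 7 and 0.86 at day 2 with ATRA against -0.29 and -0.22 without it. Cdc20, the activator of the anaphase-promoting complex, had the lowest unadjusted p of the members, with an interaction of 0.89 (SE 0.22, limma, unadjusted p = 0.00887). Its levels were -0.28, -0.52, -1.22, -0.72, -0.57 and -1.01 at day 7 and -0.27, -0.75, -2.26, -1.69, 0.45 and -0.26 at day 2, with DEN the lowest on both days. Cdca8, another passenger subunit, had 0.54 (SE 0.27). Smaller interactions were 0.28 for the transcription factor Mybl2, 0.35 for Cdca3, 0.12 for the spindle checkpoint protein Mad2l1 and 0.01 for cyclin B2 (Ccnb2).

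**Figure D2:**
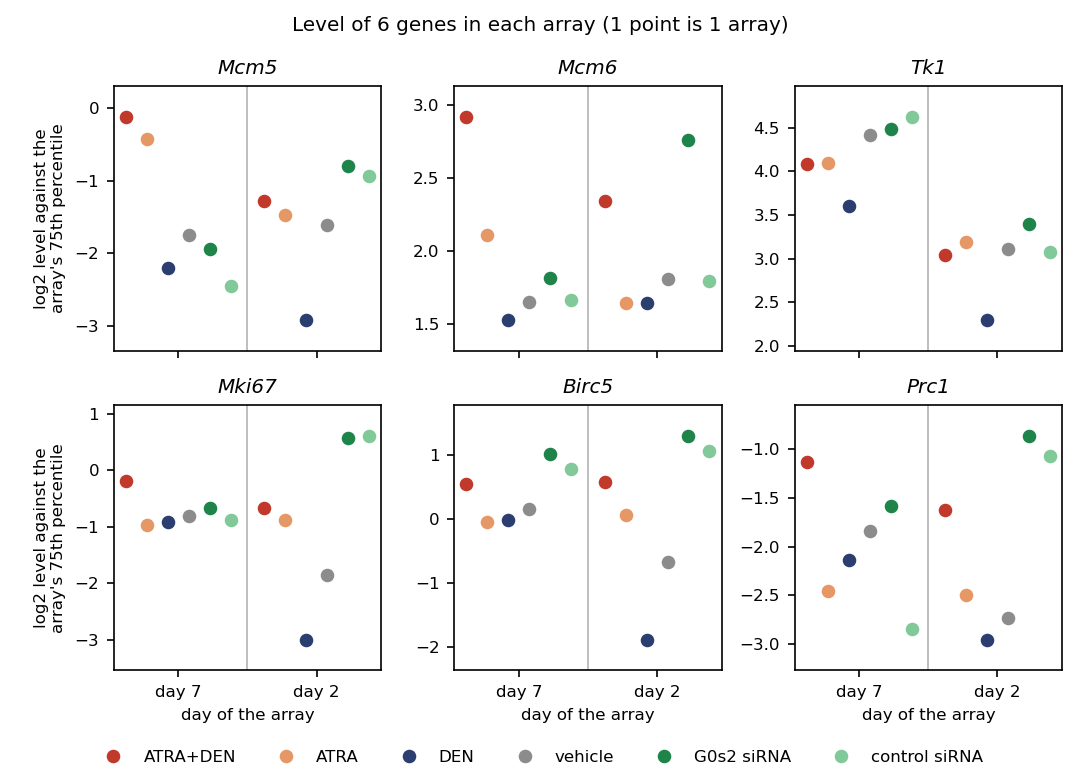
Log2 level against the array's 75th percentile (vertical axis, scale set per gene) of 6 genes in each of the 12 arrays (1 point per array, day 7 left and day 2 right, coloured by treatment). The DEN array (dark blue) is the lowest of its day's arrays without siRNA for Mcm5 and Tk1 on both days, and the day-2 siRNA arrays (green) top Mki67, Birc5 and Prc1.

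The dimmer mitosis genes crossed the background between groups, so they have bounds rather than folds. Ccnb1, cyclin B1, lay at -2.84 with ATRA+DEN, -2.68 with ATRA, -2.19 with vehicle and -2.70 with G0s2 siRNA at day 7, while DEN (-5.02) and control siRNA (-3.31) were not well above background. At day 2 it had -1.81 with ATRA+DEN, -2.53 with ATRA, -0.97 with G0s2 siRNA and -2.31 with control siRNA, while DEN (-3.72) and vehicle (-3.02) were not well above background. Against the lowest detectable signal it was at least 3.23-fold lower with DEN than with vehicle at day 7. It was at least 2.06-fold higher with ATRA+DEN than with DEN at day 7 and at least 2.76-fold at day 2. Plk1, the mitotic kinase, had -1.32, -1.36, -2.73, -1.80, -2.69 and -2.38 at day 7 in the order ATRA+DEN, ATRA, DEN, vehicle, G0s2 siRNA and control siRNA. At day 2 it had -1.86, -1.91, -5.23, -3.49, -0.98 and -1.30, of which DEN and vehicle were not well above background, and ATRA+DEN was at least 2.67-fold higher than DEN. Ccna2, cyclin A2, had -1.54, -2.27, -2.13, -1.70, -1.23 and -2.0 at day 7 and -1.61, -1.88, -3.69, -2.61, -0.93 and -1.33 at day 2. Its only value not well above background was that of DEN at day 2, which was at least 1.59-fold lower than vehicle and from which ATRA+DEN differed by at least 3.19-fold. Of the 4 arrays without siRNA, DEN was thus the lowest at day 2 for Ccna2 and at day 7 for Ccnb1 and Plk1, while the day-2 DEN and vehicle readings of Ccnb1 and Plk1 have no order. The cyclin partner Cdk1 was at least 3.15-fold higher with ATRA+DEN than with DEN at day 7 and at least 2.72-fold at day 2, and the kinetochore motor Cenpe at least 2.71-fold and at least 2.74-fold. At day 2 the same comparison gave at least 3.29-fold for the spindle kinase Aurka, at least 2.73-fold for the kinesin Kif20a and at least 2.31-fold for the centrosomal kinase Nek2. At day 7 it gave at least 1.97-fold for Nusap1, a microtubule binder, and at least 1.37-fold for the transcription factor Foxm1. Tpx2, the activator of Aurora A, differed in direction: ATRA+DEN was at least 1.93-fold higher than DEN at day 7, and at least 1.71-fold lower at day 2.

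The test of the interaction over all 21186 tested genes called 0 genes (limma, Benjamini-Hochberg adjusted p under 0.05), and the members' adjusted p was 0.9997 at the lowest. Dim members could enter the tests through the arrays where they are high, and a fitted difference of such a gene uses readings not well above background. Unadjusted p-values are therefore counted here, by a choice made after the values were seen, over genes above background on every array compared, 17 replication and 10 mitosis genes for the interaction. At an unadjusted p under 0.05 (limma), 3 of the 17 (Mcm5, Mcm6 and Tk1) and 4 of the 10 (Mki67, Cdc20, Birc5 and Prc1) were higher and 0 lower, where 1.19% of all such genes were higher and 0.971% lower. Another 7 mitosis genes, among them Ccna2, Ccnb1 and Plk1, had an unadjusted p under 0.05 that rests in part on dim readings. DEN without ATRA likewise had 0 genes that passed, with the lowest adjusted p of the members at 0.406, and unadjusted 5 of 17 replication genes (Gmnn, Mcm3, Mcm5, Tk1 and Asf1b) and 2 of 10 mitosis genes (Cdc20 and Birc5) were lower and 0 higher, against 4.56% and 3.28% of all genes above background on the 4 arrays. DEN with ATRA had 0 that passed, with a lowest adjusted p of 0.933, and unadjusted Mcm6 of 17 replication genes and Prc1 of 17 mitosis genes were higher and 0 lower, against 2.21% and 1.79% of all genes above background on those arrays.

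Of the 27 members detected on all 12 arrays, 16 were lower with DEN than with vehicle on both days and 0 were higher on both (31.8% and 22.1% of all such genes), and 15 were higher with ATRA+DEN than with ATRA on both days and 3 lower (25.1% and 29.4%). The sign of the DEN difference was opposite with and without ATRA, on both days, for 10 of the 27 members detected on all 12 arrays. These were E2f1, Mcm4, Mcm5, Mcm6, Rrm1, Mki67, Cdc20, Cdca8, Birc5 and Prc1, lower with DEN than with vehicle and higher with ATRA+DEN than with ATRA. Of all genes detected on all 12 arrays, 4.06% had this pattern. Several of these differences were small at day 7, where DEN was below vehicle by 0.03 for E2f1 and by 0.12 to 0.17 for Mki67, Cdca8, Mcm6, Rrm1 and Birc5. Leaving out the vehicle array of day 2 gave a median interaction of 0.52 over the tested replication genes and 0.74 over the tested mitosis genes, dim readings included, against 0.53 and 0.85 with it. The median DEN difference without ATRA was then -0.29 and -0.43, against -0.23 and -0.26 with it. Without that array this difference comes from the day-7 pair alone, so these are the day-7 values. The interaction of 0.52 and 0.74 then sets the mean of both days with ATRA against day 7 without ATRA. With the day-7 groups named by the treatment characteristic, the median DEN difference without ATRA over the tested replication genes was 0.12, against -0.23 by title, and the median interaction was 0.18 over the replication and 0.38 over the mitosis genes. Second probes above background for Mcm3, Tk1 and Mki67 gave interactions of 0.41, 0.62 and 0.96 and the sign of the brightest probe.

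**Figure D3:**
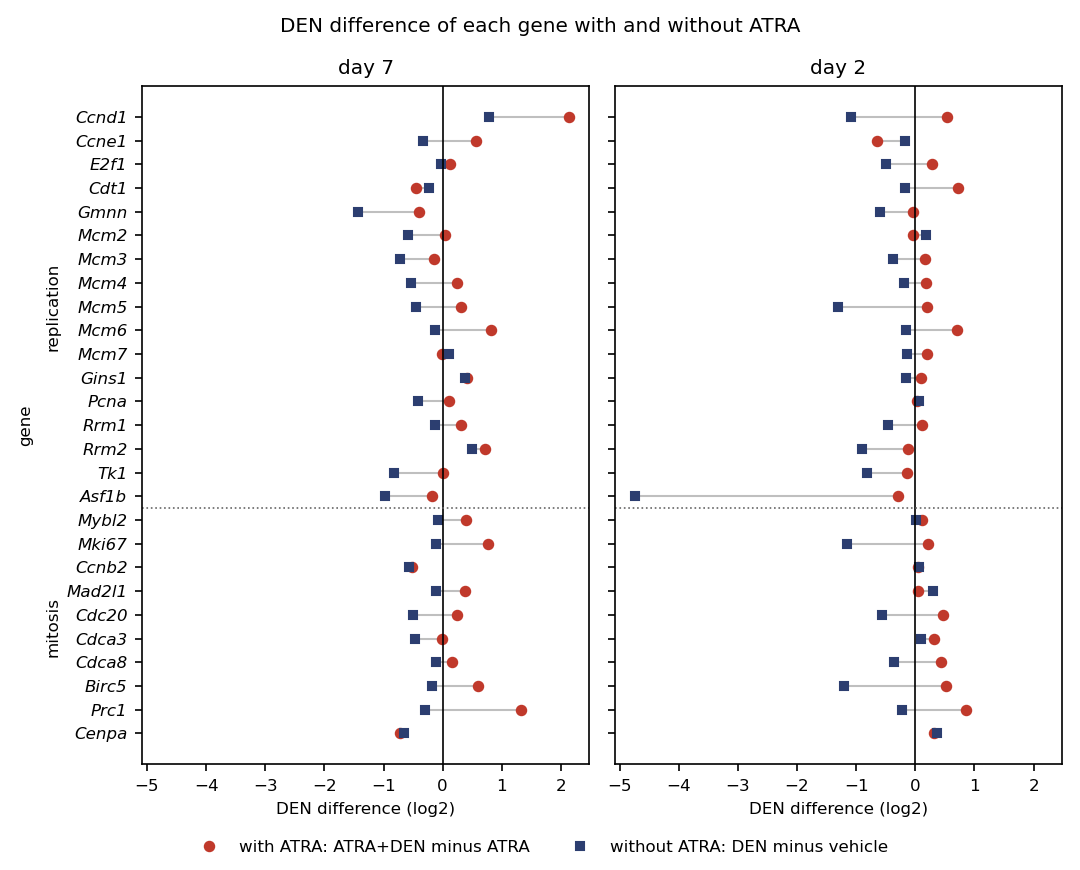
DEN difference in log2 (horizontal axis, same scale in both panels) of the 27 cell cycle genes above background on all 12 arrays (rows), as ATRA+DEN minus ATRA (red circles) and as DEN minus vehicle (blue squares), at day 7 (left) and day 2 (right). The circle lies to the right of the square for 24 genes at day 7 and 21 at day 2, and the Asf1b square at -4.74 rests on the vehicle array of day 2.

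ATRA given with DEN went with higher cell cycle genes than DEN alone. This comparison shares its DEN arrays with the one above, so it is no independent evidence. Of the 27 members detected on all 12 arrays, 25 were higher with ATRA+DEN than with DEN on both days and 0 were lower on both, where 23.3% and 17.4% of all such genes were. The 2 others were Gins1 and Mybl2, which had opposite signs on the 2 days. The median difference over the 17 replication genes was 0.95 at day 7 and 0.52 at day 2, and over the 10 mitosis genes 0.64 and 1.05, against 0.08 and -0.02 over all such genes. The largest mean differences among genes detected on all 12 arrays were 1.87 for Mcm5 (SE 0.35), 1.53 for Mki67 (SE 0.51), 1.52 for Birc5 (SE 0.55) and 1.46 for Cdc20 (SE 0.36). Mcm5 differed by 2.09 and 1.65 on the 2 days, whereas the 3 mitosis genes differed by 0.57 to 0.94 at day 7 and by 1.98 to 2.47 at day 2. Over all genes limma called 0 (lowest adjusted p of the members 0.9999), with 7 of 18 replication and 6 of 10 mitosis genes higher and 0 lower before adjustment (p under 0.05) among those above background on the 4 arrays, against 1.42% and 0.928% of all such genes. Another 7 mitosis genes did so with at least 1 dim array. The ATRA effect averaged over the pairs with and without DEN also had 0 genes that passed, with 4 of 17 replication and 5 of 10 mitosis genes higher unadjusted, against 2.52% of all genes above background on the 8 arrays, and medians of 0.53 and 0.70 over the tested replication and mitosis genes without the day-2 vehicle array, against 0.42 and 0.71 with it. The day-7 pair lies on 2 slides, so slide and ATRA cannot be told apart there, while at day 2 all 4 arrays share a slide. With the day-7 groups of the treatment characteristic the median over tested replication genes was 0.08, against 0.64 by title.

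ATRA alone against vehicle gave smaller medians: 0.28 at day 7 and 0.08 at day 2 over the 17 replication genes, and -0.0039 and 0.44 over the 10 mitosis genes. Of the 27 members 12 were higher on both days and 1, Rrm1, was lower on both, where 22.4% and 27.9% of all genes detected on all 12 arrays were higher and lower. All 10 mitosis genes were higher with ATRA than with vehicle at day 2, by 0.09 to 0.99, and 5 of 10 were at day 7. limma called 0 genes, and at an unadjusted p under 0.05 Ccnb2 (0.59, SE 0.18) was higher and 0 members were lower among the 17 replication and 12 mitosis genes above background on the 4 arrays, against 1.17% and 1.15% of all such genes. Without the day-2 vehicle array the median over the tested genes was 0.27 for replication and 0.05 for mitosis, against 0.13 and 0.33 with it. It then rests on the day-7 pair alone. At day 7 ATRA and ATRA+DEN lie on another slide than vehicle. Slide and ATRA therefore cannot be told apart in the day-7 values of this comparison and of the next. ATRA+DEN against vehicle, which differ in both agents, gave medians of 0.47 at day 7 and 0.08 at day 2 over the replication genes and 0.30 and 0.89 over the mitosis genes. It was higher on both days for 16 of 27 members, against 22.1% of all such genes, and lower on both for 1, Tk1, against 28.3%.

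**Figure D4:**
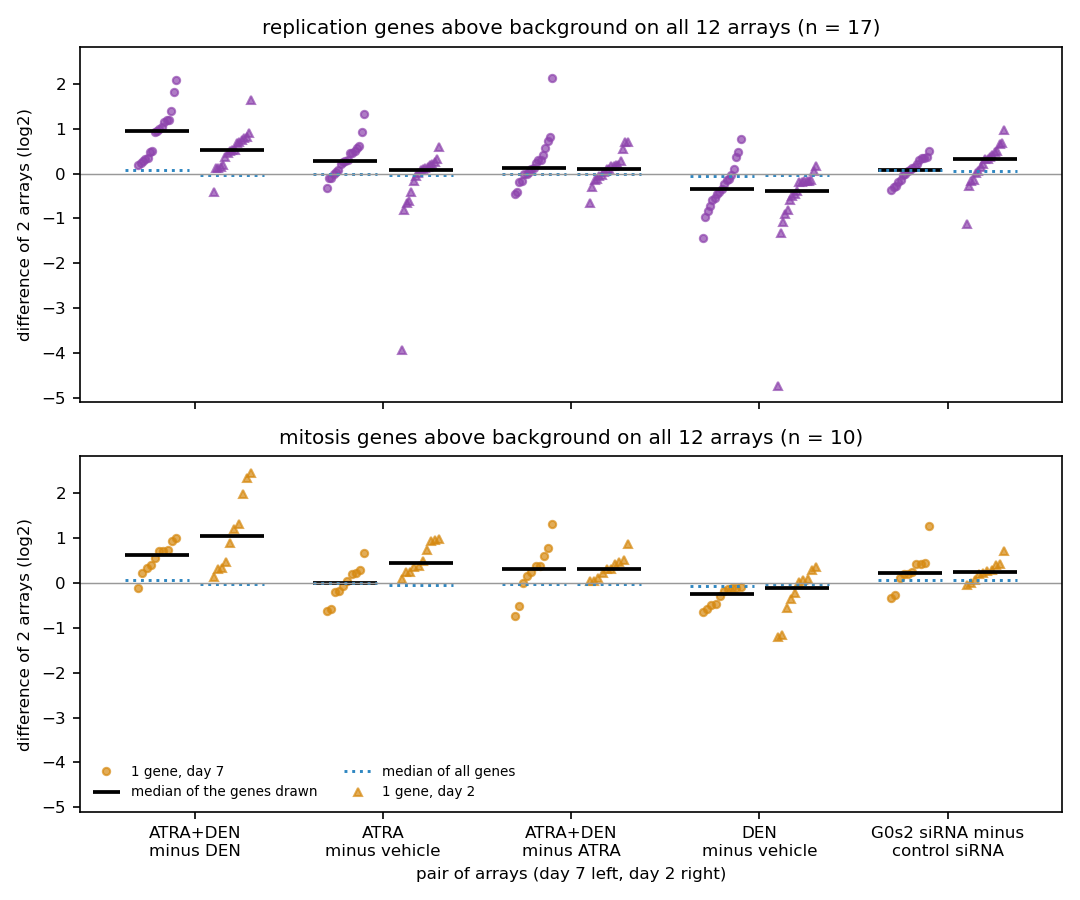
Difference between 2 arrays in log2 (vertical axis) for 17 replication genes (top) and 10 mitosis genes (bottom) above background on all 12 arrays, in 5 pairs of groups, at day 7 (circles) and day 2 (triangles). Black bars are medians of the genes drawn and dotted blue bars medians over all genes detected on all 12 arrays; ATRA+DEN minus DEN has the highest black bars (0.95 and 0.52 at the top, 0.64 and 1.05 at the bottom) and DEN minus vehicle the lowest.

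G0s2 siRNA against control siRNA gave median differences of 0.09 to 0.32 in these genes. The knockdown gene G0s2 lay at 2.26 with G0s2 siRNA and 3.45 with control siRNA at day 7, and at 1.99 and 3.84 at day 2. Over the 17 replication genes the median difference was 0.09 at day 7 and 0.32 at day 2, and over the 10 mitosis genes 0.23 and 0.25, against 0.07 and 0.06 over all genes detected on all 12 arrays. Of the 27 members 14 were higher on both days and 1, Asf1b, was lower on both, where 38.4% and 19.6% of all such genes were. limma called 0 genes, and unadjusted 0 of 18 replication and 2 of 16 mitosis genes above background on the 4 arrays were higher, Cdc20 by 0.58 (SE 0.15) and Prc1 by 0.74 (SE 0.29), against 2.57% of all such genes. Cenpe, measured on both arrays at day 2 but not at day 7, had -0.80 with G0s2 siRNA and -1.43 with control siRNA at day 2.

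The 2 siRNA arrays of day 2 held the highest median mitosis levels of the series, control siRNA by a small margin. Each member's level minus its own mean over 12 arrays had a median over the 10 mitosis genes of 0.55 with G0s2 siRNA and 0.37 with control siRNA at day 2, the first and second of 12, and of 0.22 and -0.0031 at day 7. ATRA+DEN at day 7 came next at 0.36, close to control siRNA at day 2. The lowest were DEN at -0.87 and vehicle at -0.79 at day 2. The siRNA arrays of day 2 lie on a slide of their own, so siRNA injection and slide cannot be told apart. Whether those mice drank DEN is not labelled. Cdkn1a, the p21 gene, lay at 3.37 with G0s2 siRNA and 4.00 with control siRNA at day 2, against 4.02 with DEN and 1.12 with vehicle. Mdm2, also read as a check, lay at 3.94 and 4.31, against 4.74 with DEN and 3.51 with vehicle. The part of DEN intake was not tested. The summed linear level of the 10 Kupffer cell and macrophage markers, all above background on every array, was 211 with G0s2 siRNA and 315 with control siRNA at day 2, against 80.8 to 89.3 on the other day-2 arrays and 71.2 to 118 at day 7. As median level minus each gene's own mean, this list had 0.79 with G0s2 siRNA and 1.14 with control siRNA at day 2. The 5 neutrophil markers detected on all 12 arrays had 0.80 and 0.48, and the 5 such red cell precursor markers 0.48 and 0.40. Each of these lists had its first and second places of 12 there. The hepatocyte, T, B and NK cell, endothelium, stellate and cholangiocyte lists did not. The part of these cells in the mitosis levels was not tested.

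Between day 7 and day 2, 5 of the 39 tested members differed, and day and slide cannot be told apart. Over all genes, 46.8% of those tested passed (limma, Benjamini-Hochberg adjusted p under 0.05), 26.3% higher and 20.5% lower, and the median over all genes detected on all 12 arrays was 0.21. Of the members 4 of 18 replication and 1 of 21 mitosis genes passed. Tk1 rose by 1.2 at day 7 against day 2 (SE 0.11, adjusted p = 0.00059), with every day-7 array (3.60 to 4.63) above every day-2 array (2.29 to 3.40). E2f1 rose by 0.69 (SE 0.13, adjusted p = 0.0055) and Mcm7 by 0.44 (SE 0.12, adjusted p = 0.0197). Tyms (-0.57, adjusted p = 0.0164) and Foxm1 (-0.85, adjusted p = 0.00336) were called lower, but these fitted values use readings not well above background on 2 of the 6 day-7 arrays for Tyms and on 4 for Foxm1. The calls of Mcm7 (0.22) and Tyms (-0.32) were lost under quantile normalization, that of Mcm7 also without the vehicle arrays or without the ATRA arrays, and those of Tyms and Foxm1 (both -0.20) with normexp background correction. The median over the 17 replication genes was 0.12 and over the 10 mitosis genes 0.19, both below the shift of all genes.

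Genes of the same processes outside the 50 were read from lists. Of 44 other mitosis genes 28 were tested and 0 passed for the interaction, with a median of 0.45 and 18 of 28 higher and 2 lower on both days, where 26.8% and 19.2% of all tested genes were. Examples were the cytokinesis protein Cep55 at 1.24 and the ubiquitin-conjugating enzyme Ube2c at 1.13, while Ect2, which acts in cytokinesis, had -1.16 (9 to 11 of 12 arrays above background for these 3). Of 40 other replication genes 36 were tested and 0 passed, with a median of 0.11 and 14 higher and 4 lower on both days: Uhrf1, which guides maintenance methylation, had 1.77, the helicase factor Cdc45 1.21 and the origin protein Orc2 -1.12, each dim on 1 to 3 arrays. The G1 cyclins, CDKs, E2F and pocket proteins had a median of 0.12 over 20 tested genes, with 1.28 for Myc and 1.25 for the pocket protein Rbl1, and the S phase linked repair and checkpoint genes 0.14 over 14. The cell cycle inhibitors had 0.36 over 13, with 8 higher and 2 lower on both days. The p21 gene Cdkn1a went the other way at -1.36. It lay at 6.62 with ATRA+DEN, 2.84 with ATRA, 6.83 with DEN, 1.96 with vehicle, 6.82 with G0s2 siRNA and 5.56 with control siRNA at day 7, and at 3.39, 2.13, 4.02, 1.12, 3.37 and 4.00 at day 2. ATRA+DEN exceeded ATRA by 3.78 and 1.26 on the 2 days, DEN exceeded vehicle by 4.87 and 2.90, and the ATRA+DEN array was 0.21 and 0.63 below the DEN array. Wee1 and Pkmyt1, the kinases that hold CDK1 inactive, had 0.86 and 1.31.

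Markers of other liver cells moved in part with the interaction. All 10 Kupffer cell and macrophage markers had a mean interaction above 0, between 0.13 and 0.28, and 8 were above 0 on both days. The sinusoidal endothelium list had a median of 0.39 (9 of 10 above 0) and the T, B and NK cell list 0.36 (9 of 10). The hepatocyte list had 0.02 (6 of 12) and the stellate list 0.11 (6 of 10). On both days, however, only 3 of 10 endothelium markers were above 0 and 1 was below. Of 7 tested T, B and NK cell markers 3 were above and 0 below, of 12 hepatocyte markers 2 and 2, and of 10 stellate markers 5 and 3. Of all tested genes, 26.8% were above 0 on both days and 19.2% below. Of 6 tested neutrophil markers 4 were above 0 on both days and 0 below. S100a8 and S100a9 had means of 1.98 and 1.55, but Ly6g had only 0.12 at day 7 and 0.16 at day 2, and Elane 0.20 and 0.01. Camp (0.60 and -1.22) and Retnlg (-2.16 and 1.19, above background on 4 arrays) had opposite signs on the 2 days. The list's summed linear level was 11.5 with ATRA+DEN, 11.2 with ATRA, 8.85 with DEN and 12.3 with vehicle at day 7. At day 2 it was 14.5, 14.9, 11.2 and 14.9. On each array 5 to 7 of its 10 genes were above background. The DEN array had the lowest sum on both days, but without the list's highest gene the day-7 sum was lowest with ATRA+DEN (4.40, against 5.29 with DEN). The summed level of the red cell precursor list was 97.0 with ATRA+DEN, 14.4 with ATRA, 21.4 with DEN and 15.4 with vehicle at day 7, and 56.4, 11.0, 47.7 and 45.2 at day 2. Most of these differences came from a single gene, Alas2, which makes haem in red cell precursors: without it the sums were 4.60, 7.32, 6.63 and 7.95 at day 7 and 6.44, 6.35, 6.44 and 5.65 at day 2. The T, B and NK cell list summed to 77.5, 99, 56.7 and 59.4 at day 7 and to 60.9, 58.2, 61.1 and 75.5 at day 2, with 3 to 6 of its 10 genes above background. Nearly all of that was Cd4, without which the sums were 4.43, 5.67, 3.86 and 3.84 at day 7. At day 2 they were 11.2 with ATRA+DEN, 10.9 with ATRA, 10.73 with DEN and 14.0 with vehicle. Without Cd4 the lowest of these sums was thus that of DEN at day 2 and that of vehicle at day 7. The part of these cells in the members' levels was not tested.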

How the data were processed

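Total RNA of mouse livers was labelled with Cy3 and hybridised to 1-colour Agilent arrays, 1 for each of 6 treatments at 2 times. The deposited scanner files give each spot's intensity after the authors' background subtraction, made with Agilent Feature Extraction 10.7.1.1 per the file headers (9.5.1.1 per the submitters' processing notes). The log2 values of the authors' deposited series table, quantile normalized separately per day, served as an alternative. Control spots and outlier flags were left out. Each level is log2 of the processed intensity minus the array's 75th percentile, with spots of a probe averaged and the brightest probe taken per gene. Genes above background on at least 2 of 12 arrays were tested with limma 3.58.1 (R 4.3.3, lmFit and eBayes) and Benjamini-Hochberg adjustment over 21186 genes at 0.05. The fit was tested on simulated data. The 2 days of a treatment stand in for replicates. DEN pairs each lie on 1 slide, the day-7 ATRA pairs on 2, and day and slide cannot be told apart. Groups follow titles and source names.

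Gene symbols were updated through RefSeq. The members and lists were chosen with earlier results of these data known. Values in all 12 arrays were given for the 6 replication and 6 mitosis genes with the largest absolute interaction among those above background on at least 6 arrays. Tk1 and Cdc20 were added after their values were seen. In each comparison the members with the largest mean difference and the same sign on both days were named, with those that went against the rest, and of each other list up to 4 genes with the largest absolute interaction. A difference where 1 array was not well above background is a bound, the brighter value over the higher of the dim array's lowest detected signal and the dim probe's own value. Alternatives changed the normalization, background correction (normexp, offset 50), probe rule, filter, day-7 grouping or arrays used. Tables were handled with Python 3.11.15 and pandas 2.3.3.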

Additional observations from a re-analysis of the deposited data

Results flagged for a closer look

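The DEN difference had opposite signs with ATRA (ATRA+DEN minus ATRA) and without it (DEN minus vehicle) on both days, higher with and lower without, for the median of the replication genes and of the mitosis genes detected on all 12 arrays and for 10 single genes. The difference with ATRA minus that without was averaged over the days for each gene, in log2. The median of these gene averages was 0.51 over the replication genes and 0.44 over the mitosis genes detected on all 12 arrays. Among single replication genes the averaged difference was 0.46 for E2f1, 0.57 for Mcm4, 1.14 for Mcm5, 0.90 for Mcm6 and 0.50 for Rrm1. Among mitosis genes it was 1.13 for Mki67, 0.89 for Cdc20, 0.54 for Cdca8, 1.25 for Birc5 and 1.35 for Prc1. For the medians the difference was not tested. For the single genes limma's interaction did not pass Benjamini-Hochberg adjustment over all tested genes (adjusted p = 0.9997 for each).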

How the results depend on the processing

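Values here are medians over the tested members, replication before mitosis, and the cause of a change was not tested. The interaction (0.53 and 0.85) was above 0 for both roles under all alternatives run. It was 0.36 and 0.29 with normexp, 0.18 and 0.38 with the characteristic's day-7 groups, 0.62 and 0.79 without day 7, and 0.69 and 0.77 without day 2. For mitosis genes it was 0.88 with quantile normalization, 0.84 in the authors' table, 0.67 averaged over probes, 0.47 with no filter, 0.44 for genes above background on all 12 arrays, and 0.74 without the day-2 vehicle array, a choice made after seeing the data. DEN without ATRA (-0.23 and -0.26) gave 0.12 and -0.032 with the characteristic's groups. It gave -0.29 and -0.43 both without day 2 and without the day-2 vehicle array, which both leave the day-7 pair alone. For replication genes it was -0.25 with quantile normalization, -0.16 with normexp, -0.20 averaged over probes or with no filter, -0.26 for all 12 arrays and -0.31 without day 7. DEN with ATRA (0.17 and 0.30) gave 0.12 and 0.056 with normexp, 0.11 and 0.26 with no filter, 0.13 and 0.27 for all 12 arrays, 0.21 and 0.36 with the characteristic's groups, and 0.14 and 0.32 without day 7. Its mitosis median was 0.31 with quantile normalization or averaged over probes and 0.33 without day 2. ATRA with DEN (0.64 and 1.24) gave 0.076 and 0.61 with the characteristic's groups, and for mitosis genes 0.37 with normexp, 0.81 averaged over probes, 0.75 with no filter, 0.71 for all 12 arrays and 0.72 without day 2. With the characteristic's groups the replication median was -0.13 for ATRA without DEN (0.13) and -0.048 for the ATRA effect over both (0.42). G0s2 siRNA (0.14 and 0.25) gave 0.27 and 0.32 without day 7, and 0.18 for mitosis genes with normexp. Against 0 genes passing limma's adjusted test, DEN without ATRA had 1 with quantile normalization and DEN with ATRA 1 with normexp. Among single genes, 242 values kept direction and call, and 8 lost the call. For the interaction no member was called to begin with, so keeping the call meant staying uncalled, and single-day values were compared by sign only. The 242 therefore do not measure how stable calls are. The interactions of Ccnd1 (-0.65) and Tyms (-0.51) turned sign with the characteristic's groups. The fits pair arrays of the same day, and with 1 array in each group there are no replicate numbers to pair by. Signal over background limited the dim mitosis genes.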
